A study of Mus musculus with 5 samples.

Results

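The genes described here encode 8 proteins of the endoplasmic reticulum (ER) that fold, modify or regulate secreted matrix proteins. They are Serpinh1, P4hb, Hspa5, Pdia3, Pdia4, Calr, Creb3l1 and Hsp90b1, taken by symbol from the 31055 genes of the deposited matrices, and all 8 were detected in every library. Their levels were measured by single-cell RNA sequencing (scRNAseq) of GFP+ cells sorted from the hindlimb skeletal muscle around the tibia of adult Prx1Cre;mTmG mice on a C57Bl/6 background. In these mice Cre recombinase under the Prx1 promoter switches a reporter from membrane Tomato to membrane GFP, so GFP marks cells of the Prx1 limb mesenchymal lineage and their descendants, including in the uninjured control. The 5 libraries are d0 (uninjured), d3 and d5 after a non-stabilized tibial fracture, and d3 and d5 after polytrauma, in which the muscles around the tibia were also crushed mechanically. With a single library of 2 pooled mice for every condition, differences between conditions could not be tested, no p-value is given, and the spread between mice is unknown.

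For 2 libraries the condition was taken from cell numbers in the study, which conflict with their labels. The library of 2001 barcodes, labelled d3 post-polytrauma, was used as d5 post-fracture, and the library of 6915 barcodes, labelled d5 post-fracture, as d3 post-polytrauma. The libraries held 1.82e+07 to 2.04e+08 UMIs (unique molecular identifiers, each one captured RNA molecule). After filtering, 1468 to 11941 cells per library were retained, with a median of 3640 UMIs per cell at d0 and 15688 to 34949 in the injured libraries. EGFP lay at 1805 to 2821 CPM (UMIs per 1000000 UMIs of the library) and tdTomato at no more than 0.0194 CPM. Summed markers of fibro-adipogenic and mesenchymal progenitors (FAP/MP: Pdgfra, Cd34, Ly6a, Prrx1 and Cxcl12) lay at 933 to 2332 CPM, and the 5 myogenic markers together at 0.287 to 3.72 CPM, with Pax7 at 0 in 3 libraries. Between 405 and 525 cell barcodes were found in both of any 2 libraries among d0, d3 fracture and d3 polytrauma, and 944 in both d5 libraries, against 0 to 3 between these sets. The d5 libraries therefore come from another barcode set than d0 and d3, and time after injury cannot be told apart from that difference in any comparison of d5 with d3 or d0.

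Secreted proteins are folded in the ER by partly overlapping systems. The HSP70-type chaperone BiP (Hspa5) and the HSP90-type chaperone GRP94 (Hsp90b1) bind exposed hydrophobic stretches, while the lectin chaperone calreticulin (Calr) holds glycoproteins together with the oxidoreductase ERp57 (Pdia3), and Pdia4 is another protein disulfide isomerase. Fibrillar procollagen additionally needs the prolyl hydroxylase complex, of which P4hb is the beta subunit, and HSP47 (Serpinh1), a chaperone specific to collagen that binds its triple helix and escorts it out of the ER. Creb3l1 (OASIS) is a transcription factor anchored in the ER membrane that is released by cleavage and is known to act on collagen genes in bone-forming cells. Repair of a fracture passes, after an inflammatory response, through a fibrous matrix rich in collagens, so these genes belong to the secretory equipment of repair cells.

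In mm10 (GRCm38, GENCODE M21) Serpinh1 (ENSMUSG00000070436) spans chr7:99345376-99353239 on the minus strand and P4hb (ENSMUSG00000025130) chr11:120560298-120573253 on the minus strand. Chromosome 2 carries 3 of the genes, namely Hspa5 (ENSMUSG00000026864, chr2:34771970-34777547, plus strand), Pdia3 (ENSMUSG00000027248, chr2:121413775-121438687, plus strand) and Creb3l1 (ENSMUSG00000027230, chr2:91982328-92024502, minus strand). Pdia4 (ENSMUSG00000025823) lies at chr6:47796141-47813430 on the minus strand, Calr (ENSMUSG00000003814) at chr8:84841850-84846934 on the minus strand and Hsp90b1 (ENSMUSG00000020048) at chr10:86690209-86705509 on the minus strand. The genes are thus spread over 6 chromosomes and none overlaps another.

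A known sequence feature of ER chaperone promoters is the ER stress response element (ERSE), a CCAAT box and a CCACG box 9 bases apart, through which the factor ATF6 acts. The letters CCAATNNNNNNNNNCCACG were searched on both strands of the 250 bases before the start of each gene in the RefSeq promoters of GRCm38.p6, where 7 of the 8 genes had an entry (not Creb3l1). They were found before Hspa5, Calr and, at 2 places, Hsp90b1, and in 37 (0.113%) of all 32851 promoters. These elements are shown because, of the 3 genes that carry them, Calr and Hsp90b1 lay above d0 after injury and Hspa5 below it. Capitals mark the fixed letters on the strand of the gene, and a minus-strand element reads CGTGG to ATTGG.
Hspa5, chr2:34772020-34772048, plus strand: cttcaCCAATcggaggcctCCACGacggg
Calr, chr8:84847070-84847098, minus strand: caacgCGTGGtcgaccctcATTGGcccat
Hsp90b1 distal, chr10:86705633-86705661, minus strand: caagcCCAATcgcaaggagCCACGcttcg
Hsp90b1 proximal, chr10:86705528-86705556, minus strand: gagtgCGTGGtgaggcacgATTGGtgagt
The Hspa5 element lies 65 to 47 bases before the RefSeq start, within the first exon of 1 longer GENCODE transcript. That of Calr lies 162 to 144 bases before the start and those of Hsp90b1 212 to 194 and 107 to 89 bases before it. The CCAAT box alone, which overlaps every ERSE, was present before 6 of the 7 genes (not Serpinh1) and in 33.8% of all promoters. TGACGTG, the core of another unfolded protein response element, was found only before Hspa5 among the 7 genes and in 1.65% of promoters.

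For the levels, UMIs of a gene were summed over the cells of a library and scaled to CPM, with exact Poisson 95% intervals that cover counting error only. Levels count 3′ tags and are compared here within a gene and not between genes. Serpinh1, the collagen chaperone, lay at 1747 CPM at d0, 3200 at d3 fracture, 2146 at d5 fracture, 2375 at d3 polytrauma and 2179 at d5 polytrauma. It was therefore highest in the d3 fracture library, while both d5 libraries lay close together, 1.02-fold apart (interval 1.01 to 1.02). P4hb lay at 235 CPM at d0, 798 at d3 fracture, 641 at d5 fracture, 735 at d3 polytrauma and 726 at d5 polytrauma. All 4 injured libraries formed a narrow band well above d0 for this subunit of the collagen hydroxylase.

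**Figure D1:**
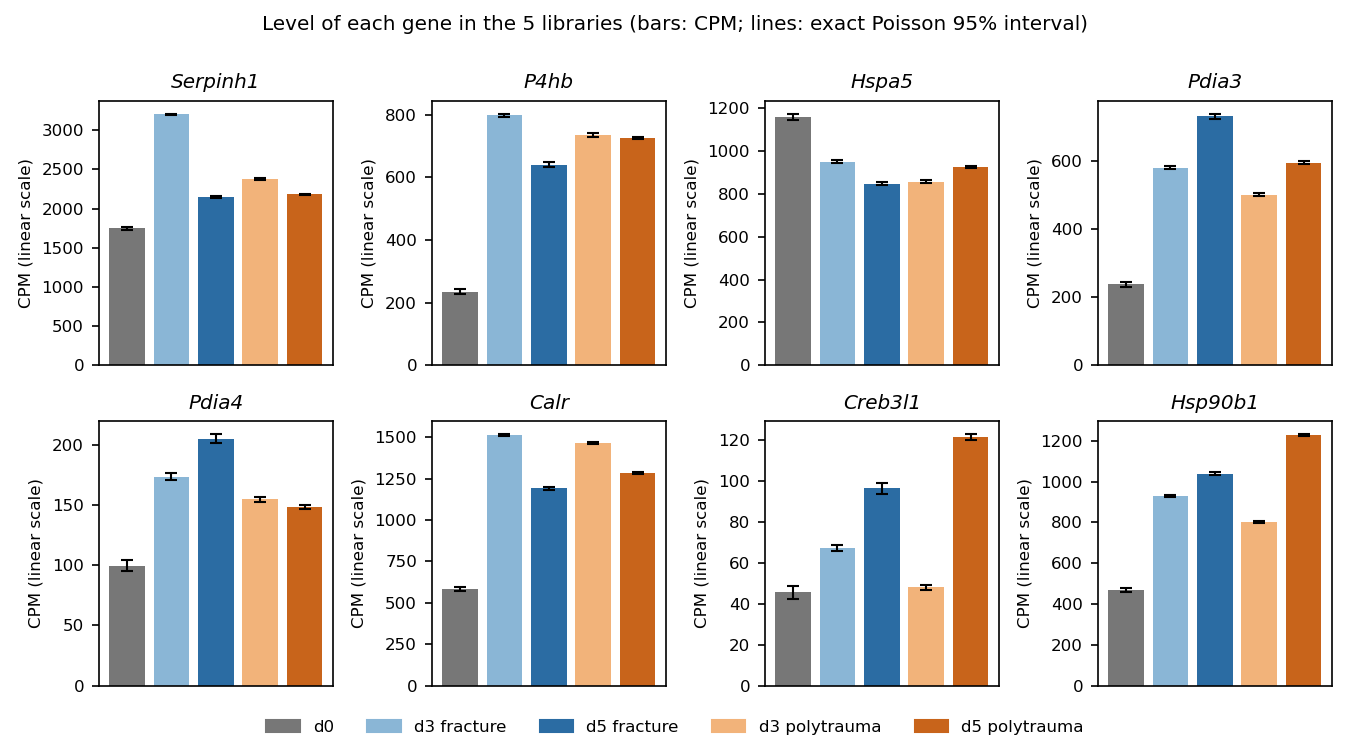
Level of the 8 genes in each library (y axis: CPM on a linear scale from 0; bars: the 5 libraries in the colours of the key; lines: exact Poisson 95% interval, counting error only). Bars for P4hb, Pdia3, Calr and Hsp90b1 stand at least 1.5-fold above the d0 bar in all 4 injured libraries, while Hspa5 is highest at d0.

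BiP went the other way. Hspa5 lay at 1158 CPM at d0 and at 951, 847, 857 and 924 CPM at d3 fracture, d5 fracture, d3 polytrauma and d5 polytrauma. Every injured library was below d0, with d0 1.22- to 1.37-fold above them. By CPM, Hspa5 thus had the narrowest range of the 8 genes and did not pass the 1.5-fold mark in any comparison. Hsp90b1, the other general chaperone, lay at 470 CPM at d0, 928 at d3 fracture, 1039 at d5 fracture, 804 at d3 polytrauma and 1230 at d5 polytrauma, which placed d5 polytrauma highest and d0 lowest.

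The pair that handles glycoproteins behaved alike at first. Calr lay at 584 CPM at d0, 1514 at d3 fracture, 1192 at d5 fracture, 1465 at d3 polytrauma and 1285 at d5 polytrauma. Pdia3 lay at 237 CPM at d0, 580 at d3 fracture, 731 at d5 fracture, 500 at d3 polytrauma and 595 at d5 polytrauma. Both were lowest at d0, but Calr was higher in the d3 libraries and Pdia3 was highest at d5 fracture. The less abundant isomerase Pdia4 lay at 99.4 CPM at d0, 174 at d3 fracture, 205 at d5 fracture, 155 at d3 polytrauma and 148 at d5 polytrauma, again lowest at d0.

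Creb3l1, the transcription factor, lay at 45.5 CPM at d0, 67.1 at d3 fracture, 96.3 at d5 fracture, 47.9 at d3 polytrauma and 121 at d5 polytrauma. Both d5 libraries lay above both d3 libraries, as they also did for Pdia3 and Hsp90b1 by CPM. In the order of the 5 levels of each gene, 31 of the 32 steps between neighbours exceeded counting error. The exception was Creb3l1 at d3 polytrauma against d0 (1.05-fold, interval 0.978 to 1.14), and the spread between mice could not be set against any of these steps.

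The first comparison asks how uninjured cells differ from cells 3 days after fracture. In the d3 fracture library 6 of the 8 genes were at least 1.5-fold higher than at d0 and none was 1.5-fold lower, against 20.2% of 9130 genes higher and 40.4% lower. P4hb was 3.40-fold higher (interval 3.29 to 3.51), Calr 2.59-fold (2.54 to 2.65), Pdia3 2.45-fold (2.37 to 2.53), Hsp90b1 1.98-fold (1.93 to 2.02), Serpinh1 1.83-fold (1.81 to 1.85) and Pdia4 1.75-fold (1.66 to 1.84). Creb3l1 was just under the mark at 1.48-fold (1.37 to 1.59). Hspa5 was at 0.821-fold of d0 (0.808 to 0.833). The median log2 ratio of the 8 genes was 0.93, and that of all genes compared was -0.32. Median-of-ratios scaling moved every log2 ratio up by 0.28, which gave a background of 28.1% higher and 31.4% lower, placed Hspa5 at d0's level (log2 ratio -0.00083) and took Creb3l1 past the mark. Creb3l1 also passed it, as the only further gene, without hematopoietic-marker cells and cells under 2000 UMIs.

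After polytrauma the same question gave 5 of 8 genes at least 1.5-fold higher at d3 and none lower, against 18.9% of 9141 genes higher and 40.5% lower. P4hb (3.13-fold, interval 3.03 to 3.23), Calr (2.51-fold, 2.46 to 2.56) and Pdia3 (2.11-fold, 2.04 to 2.18) led, followed by Hsp90b1 (1.71-fold, 1.67 to 1.75) and Pdia4 (1.56-fold, 1.48 to 1.64). Serpinh1 stayed under the mark at 1.36-fold (1.34 to 1.38) and Creb3l1 at 1.05-fold, and Serpinh1 passed it under median-of-ratios scaling (log2 ratio 0.72), which gave a background of 26.7% higher and 30.7% lower. Hspa5 was at 0.740-fold of d0 (0.728 to 0.751). Both comparisons share the d0 library, so their values are not independent. With the deposited labels, 6 of 8 genes were 1.5-fold higher in the library labelled d3 post-polytrauma. Of 9884 genes, 33.5% were then higher and 19.9% lower. Serpinh1, P4hb, Pdia3, Pdia4, Calr and Hsp90b1 lay above d0, and Hspa5 below it, in all 4 injured libraries by CPM, whichever labels are used.

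**Figure D2:**
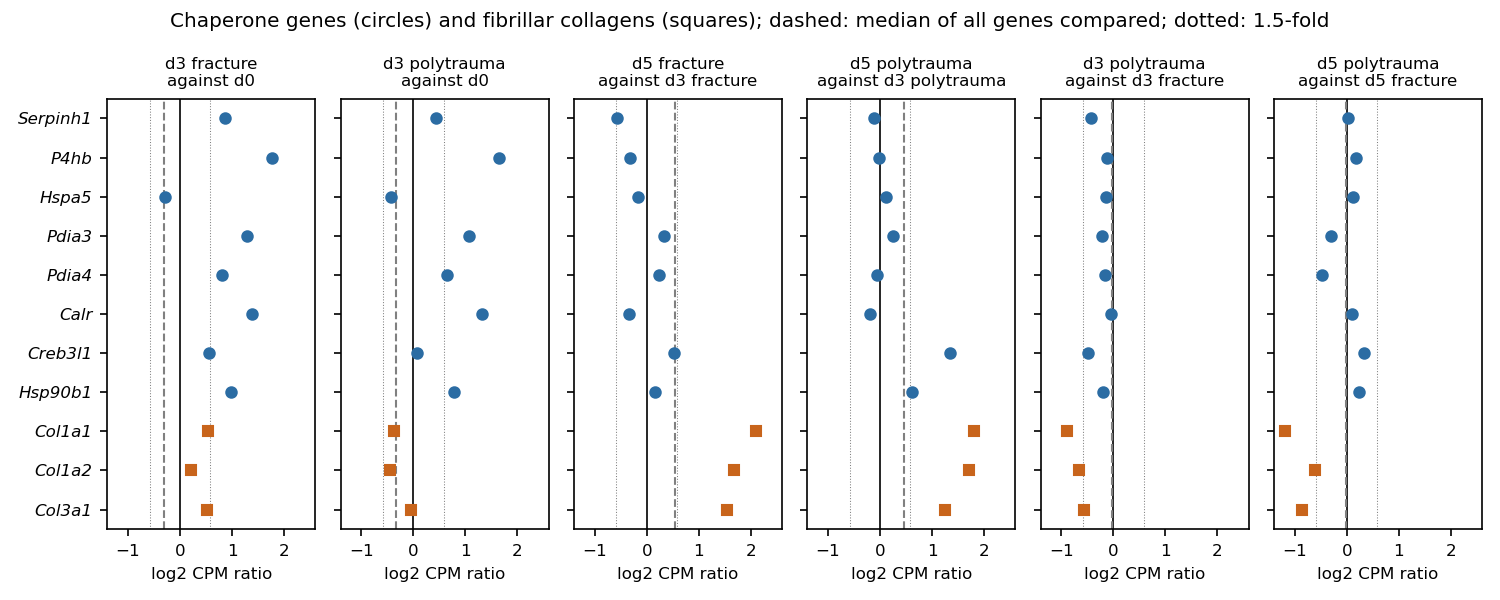
log2 CPM ratio of the 8 chaperone genes (circles) and of Col1a1, Col1a2 and Col3a1 (squares) in 6 comparisons (x axis: log2 ratio of the first named library to the second; dotted lines: 1.5-fold; dashed line: median of all genes compared). The chaperone genes lie right of the dashed line at d3 against d0 except Hspa5 after polytrauma, whereas at d5 against d3 the collagens lie far to the right and most chaperone genes lie left of the dashed line.

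The rest of the ER folding machinery (24 listed genes, 23 compared) moved in the same direction at d3, with 14 genes at least 1.5-fold higher and 1 lower after either injury. Among all genes, 20.2% were higher and 40.4% lower after fracture, and 18.9% higher and 40.5% lower after polytrauma. The median log2 ratio was 0.97 after fracture and 0.71 after polytrauma. At d3 fracture the peptidyl-prolyl isomerase Fkbp11 had a log2 ratio of 3.28, the disulfide isomerase Pdia5 2.40, Creld2 2.08 and the collagen-binding isomerase Fkbp10 2.02. At d3 polytrauma Fkbp11 had 2.73, Creld2 2.11, Pdia5 1.97 and the BiP co-factor Sdf2l1 1.76. The single gene lower was Dnajb9, a BiP co-chaperone, at -1.74 and -1.56. These lists were chosen with earlier results of these data known.

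Of 12 genes of the unfolded protein response compared at d3 fracture, 2 were higher and 4 lower, shares near those of all genes (20.2% higher and 40.4% lower), with a median log2 ratio of -0.19 (0.10 under median-of-ratios scaling). The phosphatase subunit Ppp1r15a had -3.33, the apoptosis-linked factor Ddit3 -2.09 and the factor Atf4 -0.99, while asparagine synthetase (Asns, 1.71) and Edem1 (0.67), which acts in the removal of misfolded proteins, were higher. Ppp1r15a lay at 1068 CPM at d0 and at 106 and 116 CPM in the d3 libraries. At d3 polytrauma 3 of 14 genes were higher and 4 lower, with Ppp1r15a at -3.21, Chac1 at 2.91, Asns at 1.82 and Trib3 at 1.53.

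Of 16 chaperones outside the ER, 9 were at least 1.5-fold lower and 3 higher at d3 in both injuries, against 40.4 and 40.5% of all genes lower and 20.2 and 18.9% higher after fracture and polytrauma. Hspa1b (log2 ratio -3.80), Hspa1a (-3.07), Hsph1 (-2.82) and Dnaja1 (-1.79), which encode heat-inducible cytosolic chaperones and co-chaperones, led at d3 fracture. Hspa1a lay at 4830 CPM at d0 and at 575, 50.3, 448 and 33.4 CPM at d3 fracture, d5 fracture, d3 polytrauma and d5 polytrauma. The genes higher in that list were the chaperonin subunits Tcp1 (1.24), Cct2 (1.13) and Cct5 (0.79). The heat-inducible genes named here and Ppp1r15a were thus highest at d0, as Hspa5 was, and their part in its level was not tested.

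Collagen-modifying enzymes were also higher at d3, 7 of 12 with 1 lower after each injury. Of all genes, 20.2% were higher and 40.4% lower after fracture, and 18.9% higher and 40.5% lower after polytrauma. At d3 fracture the prolyl 4-hydroxylase subunit P4ha3 had a log2 ratio of 3.03, the prolyl 3-hydroxylase P3h1 2.22 and the lysyl hydroxylase Plod3 1.91, against -1.48 for P3h2. At d3 polytrauma P4ha3 had 2.38, P3h1 1.83 and P3h2 -0.70. Among 17 genes of ER export and retrieval, 9 were higher and 1 lower at d3 fracture, led by the cargo receptors Lman1 and Surf4 (each 1.92) and the KDEL receptors Kdelr3 (1.74) and Kdelr2 (1.42), which return chaperones to the ER, with the coat subunit Sec23b at -0.72. At d3 polytrauma 7 of the 17 were higher and 2 lower, namely Sec23b (-1.06) and Sec24c (-0.66). The clients themselves were less uniform, since 3 of 8 collagen genes were higher and 2 lower at d3 fracture. Col1a1, Col1a2 and Col3a1 had log2 ratios of 0.53, 0.21 and 0.51 there and -0.37, -0.45 and -0.05 at d3 polytrauma, where that of Col3a1 turned positive under median-of-ratios scaling. Among cells selected by FAP/MP markers (described below), d3 polytrauma had 1.46-fold the Col1a1, 1.19-fold the Col1a2 and 0.837-fold the Col3a1 of d0. For Col1a1 and Col1a2 this was opposite to the direction over all cells. At d3 fracture the same cells had 2.80-, 1.93- and 1.30-fold.

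**Figure D3:**
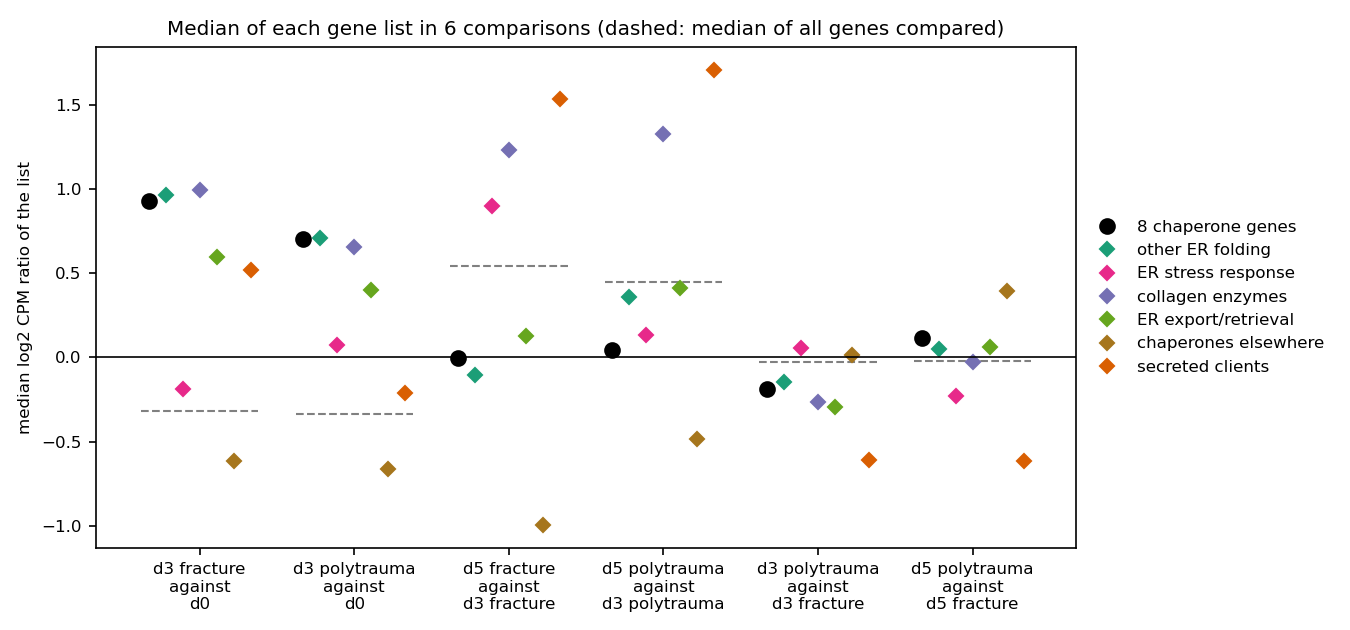
Median log2 CPM ratio of each gene list (y axis) in 6 comparisons (x axis); black circles are the 8 chaperone genes, diamonds the other lists in the colours of the key, dashed lines the median of all genes compared. The 8 genes and the other ER folding genes have medians on the same side of the all-gene median in every comparison, and the secreted clients and collagen enzymes lie highest at d5 against d3.

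Between d3 and d5 the matrix genes and the chaperone genes parted. In both injuries all 9 listed collagen genes were at least 1.5-fold higher at d5 than at d3, and 8 of 12 collagen enzymes were higher with none lower. Of the 8 chaperone genes, none was 1.5-fold higher or lower in the d5 fracture library than in the d3 fracture library, where 48.6% of 9279 genes were higher and 12.6% lower. Median-of-ratios scaling turned that background to 29.2% and 29.0%, since it lowers every log2 ratio by 0.53. It placed 4 of the 8 genes at least 1.5-fold lower, namely Serpinh1 (log2 ratio -1.11), Calr (-0.88), P4hb (-0.85) and Hspa5 (-0.70). On the CPM scale Serpinh1 was at 0.671-fold of d3 (interval 0.666 to 0.675), Calr at 0.787-fold (0.780 to 0.795), P4hb at 0.803-fold (0.792 to 0.813) and Hspa5 at 0.891-fold (0.881 to 0.901). Creb3l1 (1.43-fold, 1.38 to 1.49), Pdia3 (1.26-fold, 1.25 to 1.28), Pdia4 (1.18-fold, 1.15 to 1.21) and Hsp90b1 (1.12-fold, 1.11 to 1.13) were above 1 by CPM, and all 4 fell below 1 under the other scaling.

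After polytrauma, 2 of the 8 genes were at least 1.5-fold higher at d5 than at d3 and none lower, against 43.8% of 8977 genes higher and 7.05% lower. They were Creb3l1 at 2.53-fold (interval 2.46 to 2.61) and Hsp90b1 at 1.53-fold (1.52 to 1.54). Under median-of-ratios scaling Creb3l1 had a log2 ratio of 0.86 and stayed past the mark, Hsp90b1 dropped to 0.13, and Serpinh1 and Calr passed it downwards with -0.60 and -0.67. With the deposited labels, Creb3l1 was 1.26-fold higher and none of the 8 genes passed the mark, against 7.67% of 9627 genes higher and 14.4% lower. The other 6 genes ranged on the CPM scale from 0.877-fold for Calr to 1.19-fold for Pdia3, and all 6 were below 1 under median-of-ratios scaling, which gave a background of 22.7% higher and 22.4% lower. All-gene medians were 0.55 (log2) for d5 against d3 fracture and 0.45 for polytrauma, so the median of the 8 genes, -0.0023 and 0.05, lay below the median gene in both.

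Col1a1, the main chain of type I collagen, lay at 3670 CPM at d0, 5316 at d3 fracture, 22711 at d5 fracture, 2847 at d3 polytrauma and 9923 at d5 polytrauma. Col1a2 had log2 ratios of 1.67 and 1.71 and Col3a1 of 1.54 and 1.25 for d5 against d3 after fracture and polytrauma, and Col2a1, the cartilage collagen, had 10.77 and 9.52. UMIs of Col1a1, Col1a2 and Col3a1 per UMI of Serpinh1 numbered 6.26 at d0, 4.55 at d3 fracture, 23.7 at d5 fracture, 3.74 at d3 polytrauma and 12.4 at d5 polytrauma. This ratio does not depend on scaling but does depend on which cells a library holds. Over all cells it was lower than d0 in both d3 libraries and higher in both d5 libraries. Per UMI of P4hb it was 46.6 at d0, 18.3 and 12.1 at d3 fracture and polytrauma, 79.4 at d5 fracture and 37.2 at d5 polytrauma, so d5 polytrauma stayed below d0. Per UMI of Creb3l1 the d5 polytrauma value (223) was close to d0 (240) and d3 fracture (217), with d5 fracture at 529. In cells selected by FAP/MP markers (described below) the 3 collagens took 0.900% of UMIs at d0, 1.66% at d3 fracture and 2.82% at d5 polytrauma. Serpinh1 lay there at 1891 CPM at d0 and 3367 at d3 fracture, and P4hb at 268 at d0 and 721 at d5 polytrauma. In these cells collagen per Serpinh1 was thus not lower at d3 fracture than at d0, nor collagen per P4hb at d5 polytrauma.

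Of 12 enzymes that modify the same collagens, 8 went with them past the 1.5-fold mark after each injury, and 4 were neither higher nor lower by 1.5-fold. P3h3, P3h4 and Crtap, members of the ER complexes that modify collagen prolines and lysines, had log2 ratios of 2.25, 2.03 and 1.84 for d5 against d3 fracture, and the lysyl hydroxylase Plod2 had 1.63. For polytrauma the leading enzymes were P3h4 (2.31), P3h3 (1.88), P4ha3 (1.69) and the collagen galactosyltransferase Colgalt1 (1.58). Among all genes, 48.6% were higher and 12.6% lower at d5 after fracture, and 43.8% higher and 7.05% lower after polytrauma. Other ER folding genes were split, with 4 higher and 3 lower of 23 after fracture and 5 higher and 3 lower after polytrauma. Txndc5 (1.10 and 1.23) and Hyou1 (0.98 and 1.04) were higher and Sdf2l1 (-1.50 and -1.37) and Manf (-0.97 and -0.61) lower at d5 in both, with Fkbp11 (-0.67) lower after fracture and Dnajb9 (-1.32) after polytrauma. Of 13 stress response genes compared in each injury, 8 were higher and 1 lower after fracture, and 3 were higher and 4 lower after polytrauma. Of the 16 chaperones outside the ER, 10 were lower after fracture and 6 after polytrauma, and Hspa4 alone was higher (0.86 and 1.28). Chondrocyte markers (Col2a1, Acan, Fgfr3 and Col9a1) summed to 13.6 CPM at d0, 34.8 at d3 fracture, 2439 at d5 fracture, 6.00 at d3 polytrauma and 174 at d5 polytrauma. The 3 fibrillar collagens took 5.09% of all UMIs at d5 fracture and 2.70% at d5 polytrauma, against 0.889 to 1.46% elsewhere, and the part of these changes in the levels of the chaperone genes was not tested.

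Polytrauma was then set against fracture at the same day, within 1 barcode set. At d3 all 8 genes were lower after polytrauma than after fracture, yet none by 1.5-fold, in a comparison where 4.98% of 8217 genes were 1.5-fold higher and 3.94% lower. Of these 8217 genes, 3756 had a log2 ratio above 0. Fracture exceeded polytrauma 1.40-fold for Creb3l1 (interval 1.35 to 1.45) and 1.35-fold for Serpinh1 (1.34 to 1.35). The other 6 genes lay between 1.03-fold for Calr and 1.16-fold for Pdia3, and the median log2 ratio was -0.19 against -0.03 for all genes. Of 8 collagen genes compared, 4 were at least 1.5-fold lower after polytrauma, and all 8 had a negative log2 ratio, with Col1a1 at -0.90. ER export genes had no positive log2 ratio among 16, with a median of -0.29. Hematopoietic markers summed to 101 CPM at d3 polytrauma against 25.1 at d3 fracture. Without cells carrying such markers none of the 8 genes changed its side of the mark in this comparison.

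At d5 none of the 8 genes differed 1.5-fold between polytrauma and fracture, where 7.67% of 9627 genes were higher and 14.4% lower. Creb3l1 was higher after polytrauma (1.26-fold, interval 1.22 to 1.30), as were Hsp90b1 (1.18-fold, 1.17 to 1.20) and P4hb (1.13-fold, 1.12 to 1.15). Pdia4 was at 0.722-fold (0.706 to 0.738) and Pdia3 at 0.814-fold (0.804 to 0.823) of fracture. In contrast, 5 of 9 collagen genes were at least 1.5-fold lower after polytrauma, with Col1a1 at a log2 ratio of -1.19, Col3a1 at -0.86 and Col1a2 at -0.62. Of the chaperone genes 6 of 8 were above 1 in the same comparison, as were 4651 of the 9627 genes compared. With the deposited labels, which set d5 polytrauma against the library used here as d3 polytrauma, Creb3l1 and Hsp90b1 were 1.5-fold higher. Of 8977 genes, 43.8% were then higher and 7.05% lower.

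Because the libraries differ in cell makeup, cells were also selected by markers, with at least 2 genes of 1 marker list and fewer than 2 of every other list among 2000 UMIs drawn per cell. Such a group is a range of cells and not a cell type, and the marker lists are those by which the study separates FAP/MP, tenocyte-like cells and pericytes, with a few additions. At d0 the 2389 cells with FAP/MP markers had Serpinh1 at 1891 CPM, the 217 with tenocyte markers at 3065 and the 626 with pericyte markers at 495. All 8 genes had this order at d0. Cells with tenocyte markers exceeded those with FAP/MP markers 3.29-fold for Creb3l1 (interval 2.71 to 3.98), 1.81-fold for Pdia4 (1.55 to 2.10), 1.62-fold for Serpinh1 (1.56 to 1.68), 1.44-fold for Hspa5 (1.37 to 1.51) and 1.14-fold for P4hb (1.01 to 1.28). Of the collagens, Col1a1 was 11.1-fold higher in the tenocyte-marker cells and Col3a1 at 0.207-fold. Cells with FAP/MP markers exceeded those with pericyte markers 9.21-fold for Creb3l1 (5.32 to 17.4), 3.98-fold for P4hb (3.43 to 4.64), 3.82-fold for Serpinh1 (3.62 to 4.04) and least for Hsp90b1 (1.39-fold, 1.29 to 1.49). Median depths were alike, at 3813, 4339 and 4437.5 UMIs per cell for FAP/MP, tenocyte and pericyte markers.

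**Figure D4:**
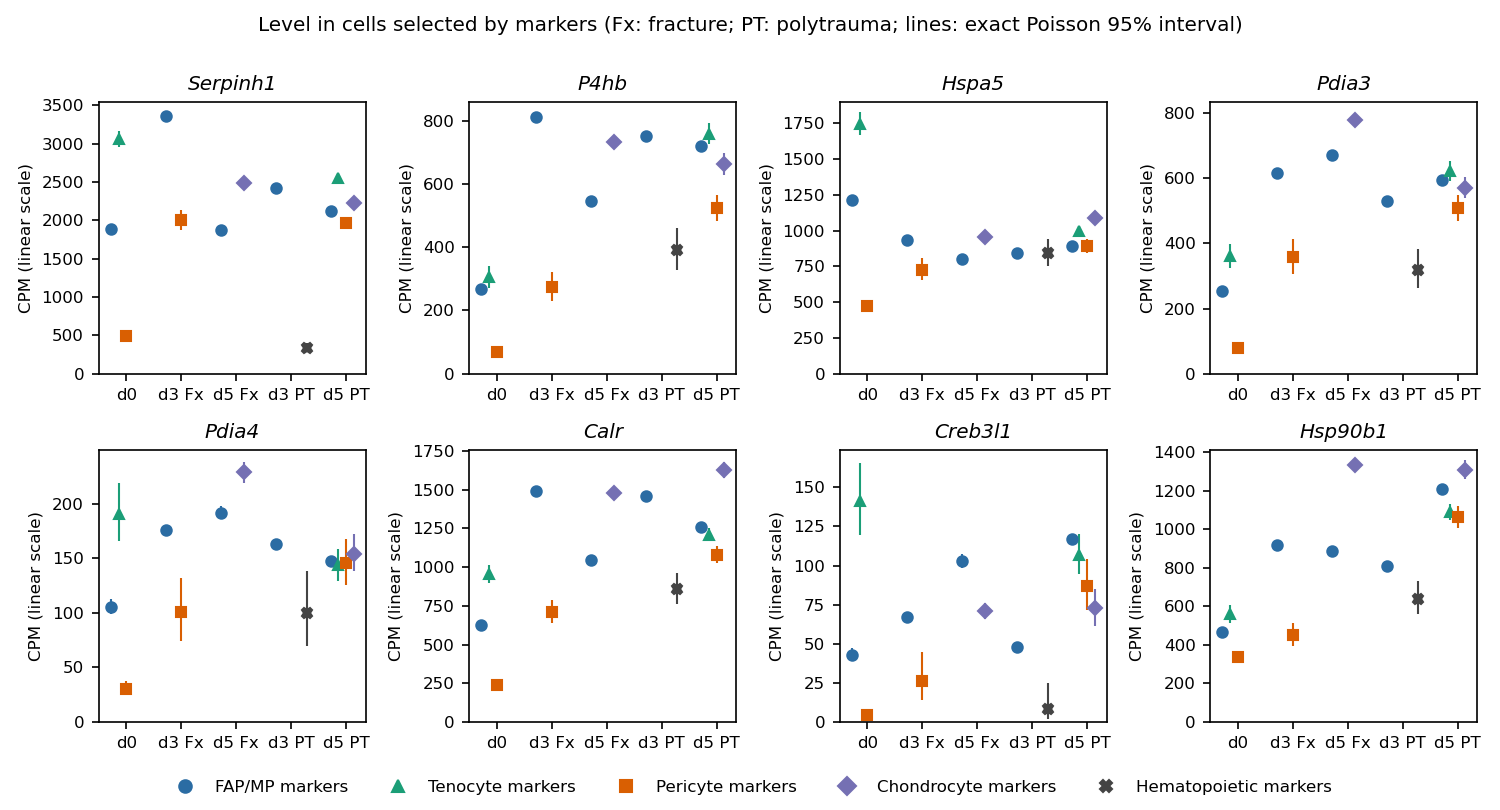
Level of the 8 genes in cells selected by markers (y axis: CPM on a linear scale from 0; x axis: library; symbols: marker lists, shown where at least 50 cells were selected; lines: exact Poisson 95% interval). At d0 the pericyte-marker cells lie lowest and the tenocyte-marker cells highest for all 8 genes.

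Cells with pericyte markers were 16.1% of the d0 cells and 1.51% or less in both d3 libraries. Among cells with FAP/MP markers alone, d3 fracture exceeded d0 3.03-fold for P4hb (interval 2.91 to 3.16), 2.43-fold for Pdia3 (2.33 to 2.53), 2.38-fold for Calr (2.31 to 2.44), 1.96-fold for Hsp90b1 (1.90 to 2.02), 1.78-fold for Serpinh1 (1.75 to 1.81), 1.66-fold for Pdia4 (1.56 to 1.78) and 1.57-fold for Creb3l1 (1.41 to 1.74). Hspa5 was at 0.771-fold (0.755 to 0.788). The higher levels at d3 were thus present within the FAP/MP-marker cells, with 7 genes past the mark in place of 6. In these cells 19.8% of 8967 genes were higher and 37.9% lower. In the 81 cells with pericyte markers at d3 fracture, Serpinh1 lay at 2003 CPM against 495 in the 626 such cells at d0, P4hb at 273 against 67.3 and Hspa5 at 726 against 474. Hspa5 was therefore 1.53-fold higher (1.36 to 1.72) at d3 in pericyte-marker cells, opposite to its direction in FAP/MP-marker cells. These 81 cells had a median of 4383 UMIs, against 16525 in the FAP/MP-marker cells of that library. Their Col3a1 lay at 1821 CPM against 179 in the pericyte-marker cells of d0. Whether the pericyte-marker cells of d0 and d3 are alike was not tested.

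At d5 fracture, 227 cells carried chondrocyte markers. Relative to the 587 cells with FAP/MP markers of that library, they had 1.501-fold more Hsp90b1 (interval 1.47 to 1.54), 1.42-fold more Calr (1.39 to 1.45), 1.34-fold more P4hb (1.30 to 1.38) and 1.33-fold more Serpinh1 (1.31 to 1.35), but 0.688-fold as much Creb3l1 (0.631 to 0.750) and 0.657-fold as much Col1a1. In the 115 chondrocyte-marker cells at d5 polytrauma Creb3l1 was also lower (0.622-fold, 0.527 to 0.728). Calr was at 1.29-fold (1.25 to 1.33), Hspa5 at 1.22-fold (1.17 to 1.27) and Hsp90b1 at 1.08-fold (1.04 to 1.12) there. Serpinh1 and Pdia4 were each at 1.05-fold, Pdia3 at 0.958-fold and P4hb at 0.919-fold (0.872 to 0.969). Within FAP/MP-marker cells, Serpinh1 at d5 fracture was at 0.557-fold of d3 fracture (0.5503 to 0.563) and past the mark downwards, Creb3l1 was at 1.54-fold (1.45 to 1.63), and Hsp90b1 turned from 1.12-fold in all cells to 0.969-fold (0.951 to 0.987). In that comparison 47.7% of 9245 genes were 1.5-fold higher and 17.4% lower. In the 74 hematopoietic-marker cells at d3 polytrauma, Serpinh1 lay at 339 CPM against 2423 in FAP/MP-marker cells, Col1a1 at 546 against 3045 and Hspa5 at 842 against 845. Hspa5 thus had a ratio of 0.997 (0.886 to 1.12) between these classes, whereas FAP/MP-marker cells had 7.16-fold more Serpinh1 (5.98 to 8.64).

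The relation to collagen within a library was examined by ranking cells with at least 2000 UMIs by their share of UMIs on Col1a1, Col1a2 and Col3a1 and splitting them into 5 bins of equal number. Gene levels were scaled to UMIs other than those 3 genes. At d0 all 8 genes were at least 1.5-fold higher in the top than in the bottom bin, against 39.4% of 9403 genes. Creb3l1 was 31.8-fold higher (interval 17.1 to 66.8, on 10 UMIs in the bottom bin). Serpinh1 was 4.81-fold higher (4.58 to 5.06), P4hb 4.10-fold (3.59 to 4.70) and Hsp90b1 1.59-fold (1.48 to 1.71). Among FAP/MP-marker cells of d0 only Creb3l1 passed the mark (2.61-fold, 1.84 to 3.75), against 16.5% of genes, while P4hb was at 1.49-fold and Serpinh1 at 1.42-fold and Hspa5 turned to 0.761-fold (0.718 to 0.808). The d0 gradient was thus smaller for all 8 genes within FAP/MP-marker cells, but over a narrower range of collagen. The 3 collagens took a median of 0.0436% of UMIs in the bottom and 1.98% in the top bin of all cells. In FAP/MP-marker cells the medians were 0.279 and 1.70%. Over all their UMIs, the pericyte-marker cells of d0 had 0.0882% on these collagens and the tenocyte-marker cells 4.77%. The parts of this range and of such cell classes in the smaller gradient were not tested.

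In the injured libraries some of the 8 genes were higher and some lower in collagen-rich cells. For Creb3l1 and Hsp90b1 the direction differed between libraries. For Pdia4 the intervals included 1 in these libraries except at d3 polytrauma (1.23 to 1.37). At d3 polytrauma 4 genes were at least 1.5-fold higher in the top bin, against 24.2% of genes, namely Creb3l1 (2.02-fold, interval 1.83 to 2.22), P4hb (1.77-fold, 1.73 to 1.82), Serpinh1 (1.67-fold, 1.65 to 1.69) and Pdia3 (1.51-fold, 1.46 to 1.56). At d5 fracture Creb3l1 alone passed the mark (2.00-fold, 1.81 to 2.21), with 23.8% of genes past it. No gene passed at d3 fracture (background 25.8%) or at d5 polytrauma (background 20.0%). There Serpinh1 was at 1.36- and 1.44-fold and P4hb at 1.42- and 1.40-fold. Creb3l1 was at 0.924-fold (0.848 to 1.01) at d3 fracture and 0.942-fold (0.901 to 0.986) at d5 polytrauma. Pdia4 was at 1.05- and 0.986-fold in the same libraries, and at 1.30-fold at d3 polytrauma. Hspa5 and Calr were below 1 in the top bin of all 4 injured libraries, Hspa5 at 0.720-, 0.872-, 0.894- and 0.780-fold and Calr at 0.683-, 0.727-, 0.816- and 0.785-fold at d3 fracture, d5 fracture, d3 polytrauma and d5 polytrauma. Hsp90b1 was below 1 at d3 fracture (0.815-fold), d5 fracture (0.702-fold) and d5 polytrauma (0.760-fold) and above 1 at d3 polytrauma (1.14-fold, 1.11 to 1.16). At d5 fracture Serpinh1 and P4hb were each at 1.03-fold, P4hb with an interval of 0.995 to 1.07. Pdia3 was at 1.02-fold and Pdia4 at 0.976-fold in that library. Cells of the top bin had fewer UMIs than those of the bottom bin in 3 of these libraries (13261 against 23781 at d3 fracture, 11062 against 20069 at d3 polytrauma, 10690 against 20958.5 at d5 polytrauma). Every cell was also thinned to 2000 UMIs before ranking. Then 1 gene was at least 1.5-fold higher at d3 fracture, 3 at d3 polytrauma and 0 at d5 polytrauma. No share over all genes was taken for thinned cells, so these counts have no background. The median log2 ratio of the 8 genes at d3 fracture was 0.17 in place of -0.023, and that of all genes 0.055 in place of 0.10.

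**Figure D5:**
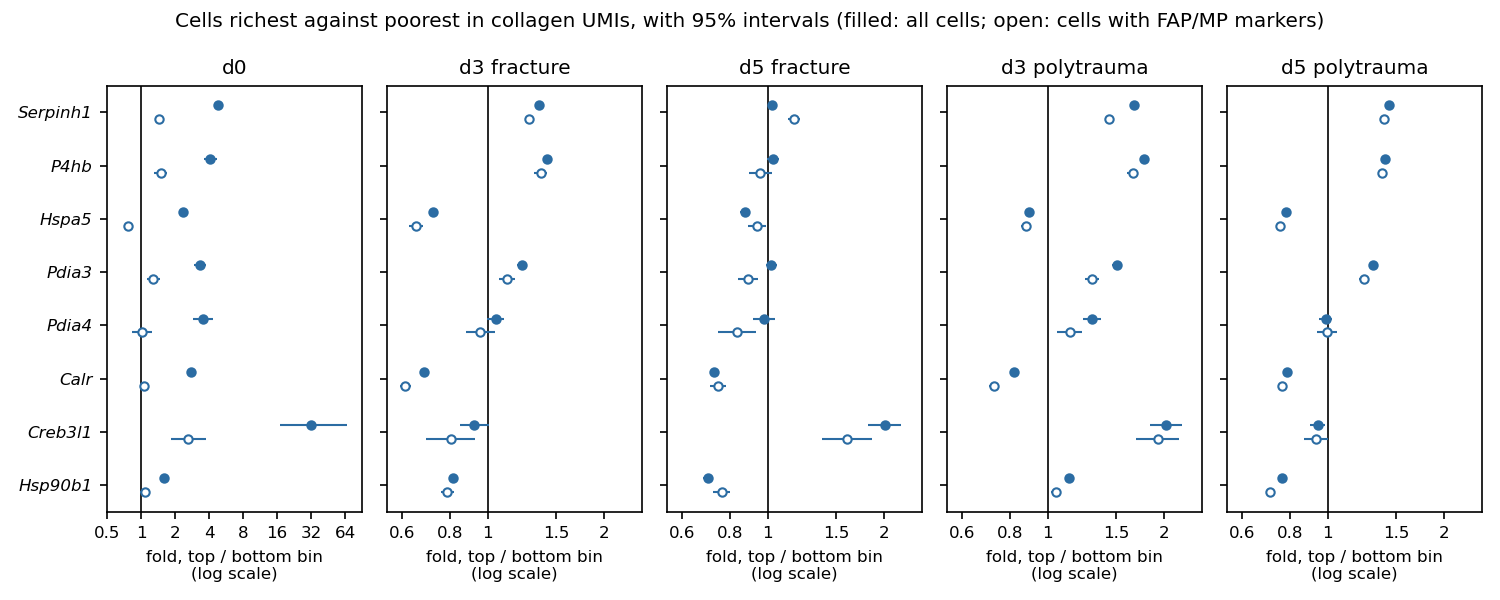
Fold of the 8 genes between the fifth of cells richest and the fifth poorest in UMIs of Col1a1, Col1a2 and Col3a1 in each library (x axis: fold on a log scale, wider at d0; filled circles: all cells of at least 2000 UMIs; open circles: FAP/MP-marker cells; lines: exact 95% interval). Serpinh1 lies right of 1 in every library, Calr and Hspa5 lie left of 1 in the 4 injured libraries, and the open circles at d0 lie far left of the filled ones.

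Shares of cells with a UMI were taken after each cell was thinned to 2000 UMIs. Creb3l1 was detected in 7.33% of 3888 cells at d0 (Clopper-Pearson interval 6.53 to 8.19), 12.1% of 5364 at d3 fracture (11.2 to 12.96), 16.9% of 1438 at d5 fracture (15.0 to 18.9), 8.53% of 6118 at d3 polytrauma (7.84 to 9.26) and 19.2% of 11517 at d5 polytrauma (18.5 to 20.0). Without thinning the shares were 15.0, 58.6, 83.5, 46.6 and 70.4%, in an order that follows the depth of the libraries in part. Among thinned cells it was detected in 0 of 74 hematopoietic-marker cells at d3 polytrauma, which allows a share of cells with a UMI of up to 4.05% (3 counts of the total; Clopper-Pearson upper limit 4.86%). Before thinning these cells held 3 Creb3l1 UMIs. P4hb was detected in 34.9% of thinned cells at d0 and 65.2 to 76.7% in the injured libraries, and Serpinh1 in 86.5% at d0 and 95.3 to 98.6% after injury. The share for Serpinh1 was 27.0% in the hematopoietic-marker cells at d3 polytrauma (17.4 to 38.6, median 4028.5 UMIs before thinning) and 96.6% in its FAP/MP-marker cells (median 14876 UMIs). Doublets were not called, and the source of the Serpinh1 UMIs in the hematopoietic-marker cells was not tested. Hspa5 was detected in 76.1 to 80.5% of thinned cells in all 5 libraries.

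Within FAP/MP-marker cells, those with a Creb3l1 UMI among 2000 were set against those without. For the other chaperone genes the ratio ranged from 0.865 (Pdia4 at d5 fracture, interval 0.566 to 1.28) to 1.29 (P4hb at d0, 1.07 to 1.56). Intervals also lay above 1 for P4hb at d3 polytrauma (1.11), Hspa5 at d3 fracture (1.14), and Hspa5 and Calr at d5 polytrauma (each 1.10). Hsp90b1 had ratios of 1.14, 1.19, 1.15, 1.11 and 1.11 in d0, d3 fracture, d5 fracture, d3 polytrauma and d5 polytrauma, with intervals above 1 in both d3 libraries and at d5 polytrauma. Serpinh1 had ratios of 0.964 to 1.17, with intervals above 1 at d0 (1.002 to 1.17), d5 fracture (1.05 to 1.31) and d5 polytrauma (1.03 to 1.10). Col1a1 had ratios of 1.02 to 1.29, with intervals above 1 in every library. A cell without a Creb3l1 UMI at this depth may still express it, so these ratios describe detection.

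The profile of each gene over the 5 libraries was compared with that of 5154 genes of at least 20 CPM on average by the Euclidean distance of centred log2(CPM + 1) values. Nearest to Serpinh1 were 1600002K03Rik (distance 0.125), Dmac1 (0.130), Cox16 (0.141), Chchd1 (0.178) and Dad1 (0.185), a subunit of the ER oligosaccharyltransferase. Nearest to Hspa5 were Gskip (0.0749), Rit1 (0.0917), Larp7 (0.0965), Chmp2a (0.115) and Chmp5 (0.119). Nearest to Creb3l1 were Tmem189 (0.149), Actn1 (0.229), Ankrd13a (0.242), Tmem263 (0.243) and Gbf1 (0.267). For the remaining genes only the first neighbour is given. It was Pdia6 for P4hb (0.129), Ppib for Pdia3 (0.193), Pycr1 for Pdia4 (0.181), Zdhhc6 for Calr (0.105) and Pgm3 for Hsp90b1 (0.0689). Pdia6 and Ppib are on the list of other ER folding genes. Among the 8 genes, P4hb and Calr had the closest profiles (distance 0.380) and P4hb and Hspa5 the most distant (1.79). With 5 libraries these distances are a description of likeness only.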

How the data were processed

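Libraries were prepared by the authors with a Chromium 3′ kit, 1 per condition, and aligned to mm10. Cell Ranger 3.1.0 is named in the matrix headers (another version is given in the methods). The deposited values are raw UMI counts per gene and barcode, without normalization. The library conditions and the filters of 350 to 8000 genes and under 20% mitochondrial UMIs follow the study, and a minimum of 1000 UMIs was added. Doublets were not called. The labels as deposited were an alternative.

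Counts were summed per library or group of cells and scaled to CPM. Ratios have exact conditional 95% intervals, which cover counting error only. A gene was called at 1.5-fold, and genes of at least 5 CPM on average of both libraries were compared. With 1 library per condition no test was made. The procedure was tested on simulated data. Members and lists were chosen with earlier results of these data known. From each other list the text names up to 4 genes with the largest log2 ratio and those past 1.5-fold against most of their list. It also names the 5 nearest profiles of 3 genes and the first neighbour of each remaining gene. Cells with FAP/MP markers only were an alternative chosen after seeing the data, as were the ratios between groups of marker-selected cells, the split by Creb3l1 detection and the promoter letters. Barcodes found in more than 1 library were kept unless stated. The alternative without shared barcodes kept such a cell only if its UMIs were at least 10-fold those of the same barcode in every other library. It left out 11 of 1468 cells at d5 fracture and 338 of 11941 at d5 polytrauma. Python 3.11.15 was used with pandas 2.3.3, scipy 1.17.1, matplotlib 3.10.9 and numpy 2.4.6. The other alternatives were median-of-ratios scaling, no UMI minimum, no shared barcodes, no hematopoietic-marker cells, no cells in the top 5% of UMIs, a mean over cells, a fold of 2, no filter on low counts, and thinned cells or 10% bins for collagen load.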

Additional observations from a re-analysis of the deposited data

Results flagged for a closer look

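For 2 of the 8 genes the d5 to d3 ratio lay on opposite sides of 1 in fracture and polytrauma, beyond counting error in each. Hspa5 had a log2 ratio of -0.17 after fracture and 0.11 after polytrauma, and Pdia4 had 0.24 after fracture and -0.062 after polytrauma. With 1 library per condition the difference between the injuries was not tested. Under median-of-ratios scaling all 4 values were negative.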

How the results depend on the processing

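No paired analysis was possible because each condition has 1 library, and no library could be left out. No alternative turned a direction past the 1.5-fold mark. No UMI minimum, no shared barcodes (by the 10-fold rule above) and no hematopoietic-marker cells each kept all 48 ratios of single genes within counting error. Median log2 ratios of the 8 genes and counts past the mark are given below where they moved.
For d3 fracture against d0 the median was 1.21 under median-of-ratios scaling, 0.97 without the 5% of cells with most UMIs and 0.90 in FAP/MP-marker cells (chosen after seeing the data). In each of these settings 7 genes were higher, against 28.1, 20.4 and 19.8% of all genes. Without hematopoietic-marker cells 7 were higher, against 20.3%, and at a fold of 2 there were 3, against 11.5%. For d3 polytrauma against d0 it was 0.99, 1.06 with deposited labels, 0.77 without the 5% and 0.80 as a mean over cells, with 3 higher at a fold of 2, against 10.8% of all genes.
For d5 against d3 fracture, median-of-ratios scaling gave -0.54 and 4 lower, deposited labels -0.19, without the 5% -0.039 and 1 lower, FAP/MP-marker cells -0.14 with 1 higher and 1 lower, and the mean over cells -0.099 and 1 lower. Of all genes, 48.2% were higher and 13.1% lower without the 5%, 47.7% and 17.4% in FAP/MP-marker cells, and 47.4% and 12.7% in the mean over cells. For d5 against d3 polytrauma, scaling gave -0.43 with 1 higher and 2 lower, deposited labels 0.12 with 0 higher, without the 5% 0.022, FAP/MP-marker cells 0.013 and the mean over cells 0.0068, each with 1 higher, as at a fold of 2. Shares of all genes higher were 43.6% without the 5%, 43.7% in FAP/MP-marker cells, 43.4% in the mean over cells and 24.9% at a fold of 2.
For d3 polytrauma against fracture the median was -0.0023 with deposited labels, -0.16 in FAP/MP-marker cells and -0.15 as a mean over cells. For d5 it was 0.17 under scaling, 0.045 with deposited labels (2 higher, against 43.8% of all genes), 0.18 in FAP/MP-marker cells and 0.18 as a mean over cells.
By collagen load, FAP/MP-marker cells gave 1 gene higher at d0, 2 lower at d3 fracture and 2 higher at d3 polytrauma. The top and bottom 10% of cells gave 2 higher at d3 fracture, 5 at d3 polytrauma and 3 at d5 polytrauma, and thinned cells 1 at d3 fracture and 3 at d3 polytrauma. Apart from FAP/MP-marker cells of d0 (16.5%), no share over all genes was taken for these settings by collagen load, so their counts have no background. Beyond the change of scale or cells that each alternative makes, the cause was not tested.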
